A study of Homo sapiens with 9 samples.

Results

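The genes described here are 56 regulators and effectors of the passage from G2 into mitosis and through cell division: cyclins with CDK1, the kinases and phosphatases that switch it on, the machinery of the anaphase-promoting complex, mitotic kinesins, spindle proteins and cytokinesis factors. They were taken as a list of gene names, read from the gene name column of the authors' table and joined by Ensembl identifier to the count files, and where a name had several identifiers the one with the most counts was used. Of 64253 gene rows in the count files, 16561 had enough counts to be tested, and 55 of the 56 members were among them. The member that could not be tested was KIFC1, a minus-end-directed spindle kinesin, which has 4 identifiers, the best of which held 5 counts over all 9 libraries.

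RNA was measured in 9 libraries of IMR90, normal human lung fibroblasts with a finite lifespan in culture. Cells at population doubling 30, kept at 2% oxygen, were infected with 2 lentiviruses 24 hours apart and selected with 3 ug/mL puromycin for 7 days. The 3 control libraries carried pLKO.1 vector without a targeting hairpin (the sample labels call it empty, the treatment protocol GFP). The 3 shRRM2 libraries carried a hairpin against RRM2, the regulated subunit of ribonucleotide reductase, which makes deoxynucleotides. The 3 shRRM2/shp16 libraries carried that hairpin and one against p16, the inhibitor of CDK4 and CDK6 encoded by CDKN2A. The series describes shRRM2 as senescence from dNTP depletion, and shRRM2/shp16 as its bypass. The effect of the p16 hairpin on cells without the RRM2 hairpin was not analysed here. The labels do not say whether the 3 libraries of a group were separate infections, so p-values measure the spread between these libraries, which may be technical.

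Entry into mitosis is driven by CDK1 bound to cyclin B, which WEE1 and PKMYT1 hold inactive by phosphorylation and CDC25 phosphatases release. The genes for much of this machinery are transcribed together late in the cycle. In resting cells they are held down by the DREAM complex, which contacts promoters through a short element, the CHR, and in cycling cells they are activated by MYBL2 and FOXM1 on the same MuvB core, often with NF-Y bound at CCAAT boxes. Cells that leave the cycle therefore lose these transcripts as a block, and their levels are widely used as a readout of proliferation.

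Gene counts per library ran from 15770895 to 24873291. RRM2 was at 481 to 491 CPM (counts scaled to library size with TMM factors) in the control libraries, 59.98 to 63.2 CPM in shRRM2 and 175 to 181 CPM in shRRM2/shp16, so the targeted gene was lowest in the shRRM2 libraries and did not reach the same low level with the second hairpin. CDKN2A, whose count also takes in the ARF transcript, was at 5.95 to 6.15 CPM in control, 5.97 to 6.79 CPM in shRRM2 and 3.93 to 4.57 CPM in shRRM2/shp16. The fibroblast markers COL1A1 and VIM were at 12707 ± 162 and 5334 ± 181 CPM in control (mean ± SD, n = 3, as for every mean here), and the 8 fibroblast markers all had counts. Their summed level was 26840 to 27700 CPM in control, 26260 to 27050 CPM in shRRM2 and 22100 to 22700 CPM in shRRM2/shp16. In shRRM2/shp16 against control, the log2 fold changes of single fibroblast markers ran from -1.32 to 1.08. Of 10 markers of epithelial, endothelial and leukocyte cells, KRT5 and CD3E had 0 counts, and 7 others were at most at 2.93 CPM in any library. CLDN4, an epithelial claudin, was the exception, at 22.3 to 23.2 CPM in control, 10.3 to 11.2 CPM in shRRM2 and 1.90 to 3.06 CPM in shRRM2/shp16. The summed level of the 4 epithelial markers, most of it CLDN4, was 23.9 to 25.2 CPM, 12 to 13.4 CPM and 3.29 to 5.21 CPM in the same order. The endothelial and leukocyte sums stayed under 3 CPM in every library. The share of uniquely aligned reads outside annotated genes was 17.6% to 18.9% in control, 27.7% to 28.8% in shRRM2 and 23.5% to 24.4% in shRRM2/shp16. That share, the RRM2 level and CLDN4 all move with the groups, and the fibroblast sum was lowest in shRRM2/shp16. The part of these differences in the results below was not tested.

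The promoters of the members carry the elements named above more often than promoters at large. RefSeq windows from 250 bases before to 50 after a transcript start (GRCh38.p14) were found for 47 members in 58 windows, and not for AURKA, FOXM1, PBK, PKMYT1, RACGAP1, TPX2, TROAP, UBE2C and WEE1. A CHR (TTTGAA or TTCGAA, either strand) was present in 35 of the 47 (74.5%), against 19.5% of 27305 genes. A CHR that began 60 to 1 bases before the start was present in 21 of the 47 (44.7%), against 3.99% of all genes. CCAAT was present on either strand in 39 of the 47 (83.0%), against 39.7%, and an E2F-like element (TTCGCGC or TTGGCGC or TTCCCGC, either strand) in 11 of the 47 (23.4%), against 13.1%. A match is a run of letters and shows neither binding nor control. Promoters are printed for members that differed in the results: CCNB2, PLK1, SAPCD2 and KIF20A, which were higher in shRRM2/shp16 than in shRRM2, and CDC25A and MYBL2, which were lower. Each runs from 140 bases before to 20 after the start, written 5′ to 3′ on the gene's own strand, with matches in capitals.
CCNB2: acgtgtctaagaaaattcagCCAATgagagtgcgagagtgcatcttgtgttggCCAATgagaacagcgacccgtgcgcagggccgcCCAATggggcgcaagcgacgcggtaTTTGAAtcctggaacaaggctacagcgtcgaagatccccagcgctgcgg
PLK1: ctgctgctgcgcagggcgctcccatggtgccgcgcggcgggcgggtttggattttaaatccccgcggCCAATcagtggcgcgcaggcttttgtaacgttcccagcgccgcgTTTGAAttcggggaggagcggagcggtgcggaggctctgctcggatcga
SAPCD2: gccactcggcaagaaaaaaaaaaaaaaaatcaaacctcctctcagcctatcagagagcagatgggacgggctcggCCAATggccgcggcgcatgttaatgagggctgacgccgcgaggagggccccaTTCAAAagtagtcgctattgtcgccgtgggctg
KIF20A: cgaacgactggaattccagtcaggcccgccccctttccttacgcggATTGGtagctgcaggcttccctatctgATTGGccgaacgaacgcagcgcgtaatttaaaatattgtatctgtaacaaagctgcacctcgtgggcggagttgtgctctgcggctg
CDC25A: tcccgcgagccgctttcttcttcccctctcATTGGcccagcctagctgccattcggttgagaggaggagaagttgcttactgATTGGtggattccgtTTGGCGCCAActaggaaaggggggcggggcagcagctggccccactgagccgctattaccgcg
MYBL2: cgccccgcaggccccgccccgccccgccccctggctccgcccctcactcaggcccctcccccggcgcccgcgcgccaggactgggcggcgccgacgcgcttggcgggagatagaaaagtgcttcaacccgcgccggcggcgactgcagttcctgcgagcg
The CCNB2 window (ENSG00000157456) lies at chr15:59105006-59105165 (plus strand). The PLK1 window (ENSG00000166851) lies at chr16:23678749-23678908 (plus strand). The SAPCD2 window (ENSG00000186193) lies at chr9:137070538-137070697 (minus strand). The KIF20A window (ENSG00000112984) lies at chr5:138178972-138179131 (plus strand). The CDC25A window (ENSG00000164045) lies at chr3:48188398-48188557 (minus strand). The MYBL2 window (ENSG00000101057) lies at chr20:43666974-43667133 (plus strand). CCNB2 shows 3 spaced CCAAT boxes and then a CHR 29 bases before the start, and PLK1 a CCAAT box and a CHR at the same 29 bases. SAPCD2 has its CHR on the opposite strand, 13 bases before the start. KIF20A has 2 CCAAT boxes on the opposite strand and no CHR letters in this stretch. CDC25A has 2 CCAAT boxes on the opposite strand and a palindrome that matches the E2F-like letters on both strands. MYBL2 has none of the searched letters in this stretch. Only the E2F-like forms given above were searched, so this does not show that MYBL2 lacks an E2F element of another form. Its printed stretch holds ttggcgg, which differs from the searched TTGGCGC only in the last letter, and the counts of E2F-like matches leave out such forms.

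**Figure D1:**
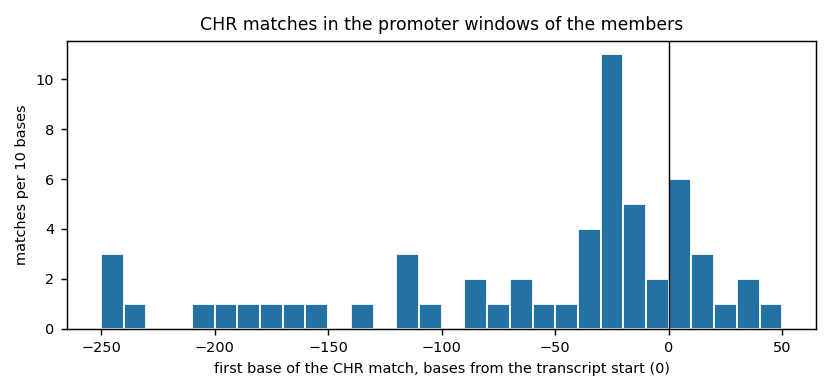
Position of each CHR match in the promoter windows of the members, in bases from the transcript start at 0 (x axis), as the number of matches per 10 bases (y axis); a gene with several windows counts in each. Matches are most frequent in the bins just before the start, where 21 of the 47 members have one within 60 bases.

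All 55 members were lower in shRRM2 than in control, and in all 55 the 3 libraries of one group lay below the 3 of the other. How many of all tested genes were without overlap, here or in the comparisons below, was not counted, so overlap is given as a description only. Groups without overlap were common outside the members too. They were found here for 10 of 16 tested transport kinesins and light chains and 13 of 21 shared cytokinesis genes. Over all tested genes 31.8% were called lower and 29% higher at an adjusted p under 0.05 (edgeR quasi-likelihood test, Benjamini-Hochberg over 16561 genes, as for every adjusted p below). The median log2 fold change of the members was -1.56, against 0.00 over all tested genes, and 48 of the 55 were lower by at least 2-fold. The share of all tested genes at 2-fold was not counted. Their 0.05 quantile was -0.83 on the log2 scale, the background for the 2-fold counts of the roles below. The members together took 0.825% to 0.837% of gene counts in the control libraries and 0.302% to 0.311% in shRRM2. In RNA from whole cultures, fewer cells in G2 and mitosis and less of these RNAs per cell cannot be told apart.

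With the p16 hairpin added, the members stayed below control but differed in the direction of their change from shRRM2. In shRRM2/shp16 against control all 55 were lower (background 32.4% lower and 30% higher), without overlap between the groups, with a median log2 fold change of -1.25 and 37 members at 2-fold or more. Against shRRM2, 36 members were higher, 8 were lower and 11 did not pass the test, where 31.9% of all tested genes were called higher and 29.1% lower. The median difference was 0.38 on the log2 scale, against 0.01 over all tested genes, and only SAPCD2 and KIF20A were at least 2-fold higher. The median member stood at 33.8% of its control level in shRRM2 and at 41.9% in shRRM2/shp16. Mean levels ran control, shRRM2/shp16, shRRM2 from high to low in 44 members, and control, shRRM2, shRRM2/shp16 in 11. A limma test on the RPKM values from the authors' table called 19 members in shRRM2/shp16 against shRRM2 (14 higher, 5 lower) with all 9 columns, and 45 (40 higher, 5 lower) without the column of shRRM2 replicate c, which does not match its count file. The comparisons share libraries, so each is given by its own values.

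**Figure D2:**
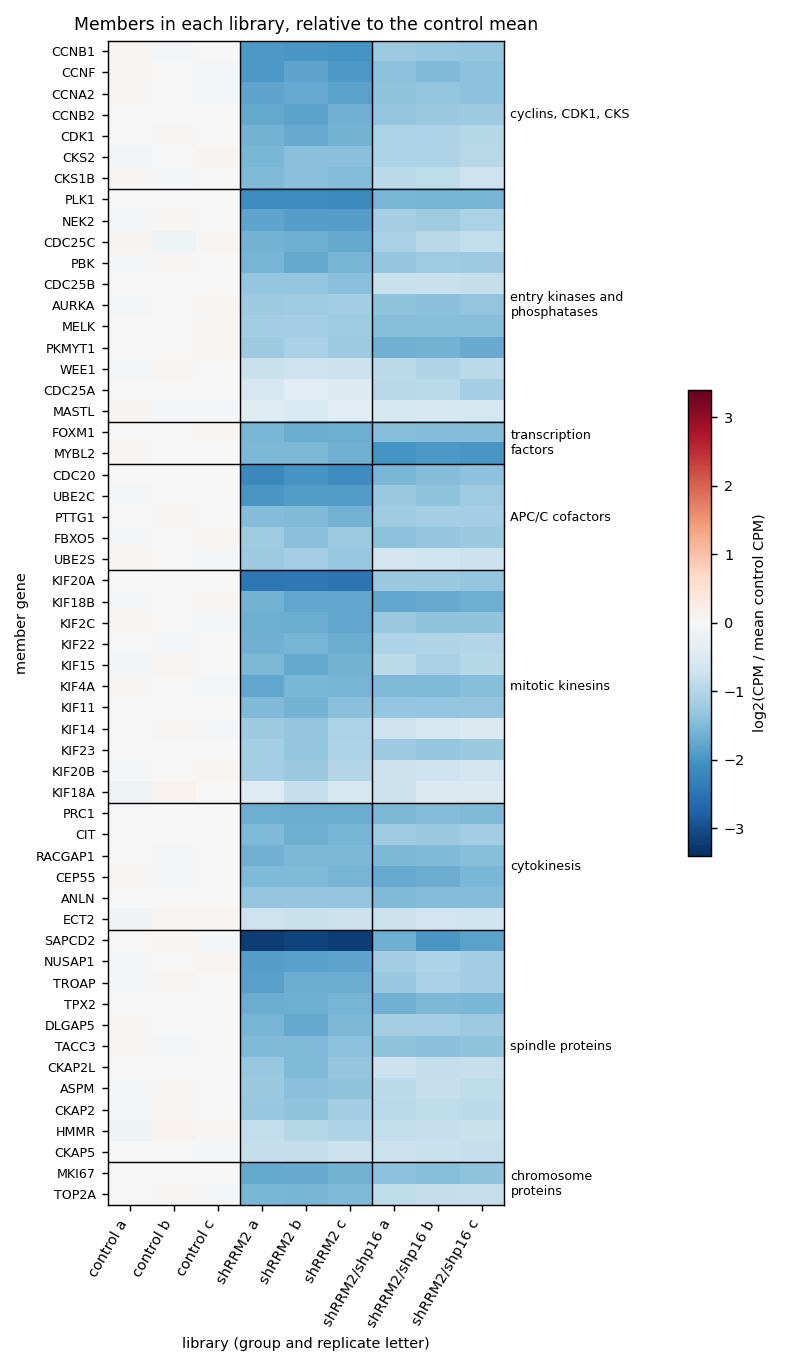
Level of each of the 55 tested members (rows, grouped by role) in each of the 9 libraries (columns), as log2 of CPM over the mean control CPM; blue is below control. Every row is blue in the 3 shRRM2 libraries, deepest for SAPCD2 and KIF20A, and most rows are paler in shRRM2/shp16, while MYBL2, PKMYT1 and CDC25A are darker there.

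The cyclins, CDK1 and the CKS subunits moved as 1 block: 7 of 7 lower in shRRM2 by at least 2-fold (median log2 fold change -1.73), and 7 of 7 higher in shRRM2/shp16 than in shRRM2 (median 0.47). CCNB1, cyclin B1, which activates CDK1 at mitosis, was at 200.1, 187 and 189.8 CPM in the control libraries, 49.4, 48.4 and 48.3 CPM in the shRRM2 libraries and 81.3, 78.6 and 76.9 CPM in the shRRM2/shp16 libraries. The 3 groups did not overlap, with the second hairpin between the other groups. Its log2 fold change was -1.98 ± 0.04 (SE) from control to shRRM2 (adjusted p = 8.4e-36) and 0.70 ± 0.04 from shRRM2 to shRRM2/shp16 (adjusted p = 3.4e-18), the lowest and the highest of this group. CDK1, the kinase itself, was at 115, 119 and 114 CPM in the control libraries, 38.3, 35.7 and 38.05 CPM in the shRRM2 libraries and 55.5, 55.9 and 58.96 CPM in the shRRM2/shp16 libraries. Its log2 fold changes were -1.64 ± 0.04 and 0.60 ± 0.05, again with no overlap. CCNA2, cyclin A2, which acts in S phase and G2, was at 122, 120.1 and 116 CPM in the control libraries, 34.3, 36.2 and 33.7 CPM in the shRRM2 libraries and 46.3, 48.1 and 45.7 CPM in the shRRM2/shp16 libraries. At 0.43 ± 0.05 on the log2 scale it had the smallest difference of the group between shRRM2/shp16 and shRRM2. CCNB2, cyclin B2, was at 87.2, 85.97 and 88.3 CPM in the control libraries, 25.9, 24.9 and 27.9 CPM in the shRRM2 libraries and 34.7, 36.5 and 36.98 CPM in the shRRM2/shp16 libraries. Its log2 fold changes, -1.73 ± 0.05 and 0.46 ± 0.06, were smaller in both directions than those of CCNB1. CCNF, the F-box cyclin that targets proteins for degradation in G2, changed by -1.90 ± 0.05 and 0.47 ± 0.06.

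The CKS proteins, small adaptors that let cyclin-CDK complexes hold phosphorylated substrates, were the least lowered of this block. CKS1B was at 70.3, 65.1 and 68.6 CPM in the control libraries, 23.9, 25.6 and 24.7 CPM in the shRRM2 libraries and 36.7, 37.1 and 41.8 CPM in the shRRM2/shp16 libraries. Its log2 fold changes were -1.46 ± 0.06 from control to shRRM2 and 0.64 ± 0.06 from shRRM2 to shRRM2/shp16. CKS2 was at 92.5, 99.9 and 106 CPM in the control libraries, 33.6, 36.97 and 37.1 CPM in the shRRM2 libraries and 48.4, 47.9 and 51.7 CPM in the shRRM2/shp16 libraries. It changed by -1.46 ± 0.05 and 0.46 ± 0.06, and neither CKS gene had overlapping groups. Per length, CKS2 was the most abundant member in control, at a mean of 157 RPKM (reads scaled to exon length and library size, from the authors' values), followed by UBE2C at 120.5 RPKM and TOP2A at 101 RPKM. SAPCD2 was the least abundant tested member, at 4.88 RPKM.

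The kinases and phosphatases of mitotic entry split. All 11 were lower in shRRM2 than in control (median log2 fold change -1.21), but against shRRM2 5 were higher in shRRM2/shp16, 5 were lower and MASTL did not pass the test. Of the 3 CDC25 phosphatases, CDC25B and CDC25C, which act at the entry to mitosis, were on the higher side, and CDC25A, which acts from late G1 onward, on the lower. CDC25A was at 38.2, 37.3 and 37.9 CPM in the control libraries, 25.6, 28.96 and 27.4 CPM in the shRRM2 libraries and 19.7, 20.1 and 17.04 CPM in the shRRM2/shp16 libraries. Its groups stepped down in order without overlap, by -0.47 ± 0.06 (adjusted p = 1.1e-08, the largest among the members in that comparison) and then by -0.53 ± 0.07 (adjusted p = 6.2e-09), the lowest value of any member in shRRM2/shp16 against shRRM2. CDC25B was at 208, 206 and 205 CPM in the control libraries, 83.2, 82.9 and 77.1 CPM in the shRRM2 libraries and 122, 123 and 118 CPM in the shRRM2/shp16 libraries. It changed by -1.35 ± 0.04 and 0.58 ± 0.04. CDC25C was at 23.2, 19.8 and 22.6 CPM in the control libraries, 7.24, 6.86 and 6.599 CPM in the shRRM2 libraries and 10.1, 11.5 and 12.2 CPM in the shRRM2/shp16 libraries. At -1.67 ± 0.09 and 0.71 ± 0.10 it was lowered more than CDC25B and was equally clear of overlap. Within each library the log2 ratio of CDC25B to CDC25A CPM averaged 2.45 in control, 1.57 in shRRM2 and 2.68 in shRRM2/shp16, with no overlap between the groups. These ratios include the constant difference in gene length.

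Both inhibitory kinases of CDK1 were among the members that edgeR called lower with the second hairpin. WEE1 was at 83.1, 90.5 and 85.02 CPM in the control libraries, 51.2, 53.3 and 51.6 CPM in the shRRM2 libraries and 46.3, 42.7 and 46.3 CPM in the shRRM2/shp16 libraries. Its log2 fold change of -0.73 ± 0.05 in shRRM2 was among the smallest, and a further -0.21 ± 0.05 separated shRRM2/shp16 from shRRM2 (adjusted p = 0.00034). The limma test on 8 columns missed this second step (adjusted p = 0.0579), and in the authors' test WEE1 was at -0.06 and not significant. PKMYT1 was at 40.4, 40.8 and 42.2 CPM in the control libraries, 17.3, 19.3 and 17.6 CPM in the shRRM2 libraries and 13.3, 13.6 and 12.5 CPM in the shRRM2/shp16 libraries. Its log2 changes were larger than those of WEE1 at each step, -1.18 ± 0.06 and -0.46 ± 0.08 (adjusted p = 1.2e-06 for the second). MASTL, the Greatwall kinase, which restrains the phosphatase opposing CDK1, was at 44.96, 41.4 and 40.9 CPM in the control libraries, 31.9, 29.5 and 32.9 CPM in the shRRM2 libraries and 28.9, 28.8 and 28.3 CPM in the shRRM2/shp16 libraries. Its change in shRRM2, -0.44 ± 0.06, was the smallest of any member, at 74.1% of control. Against shRRM2 its difference was -0.13 ± 0.06 (adjusted p = 0.051) although the 3 libraries of each group did not overlap, and it was called lower with RLE size factors, with at least 10 counts in every library, in a fit of the 6 libraries alone and with the replicate block (adjusted p 0.0337 to 0.0473), and without shRRM2 replicate b (0.0195).

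PLK1 and AURKA, which activate each other's pathway at mitotic entry, went opposite ways in the edgeR test, with a small step for AURKA that depended on the method. PLK1 was at 181, 182 and 177 CPM in the control libraries, 41.8, 41.99 and 39.9 CPM in the shRRM2 libraries and 61.7, 60.8 and 60.2 CPM in the shRRM2/shp16 libraries. It had the largest loss of the role in shRRM2, -2.13 ± 0.04, and was higher by 0.56 ± 0.04 in shRRM2/shp16 (adjusted p = 9.9e-15). AURKA was at 135, 141 and 146 CPM in the control libraries, 59.9, 60.6 and 61.9 CPM in the shRRM2 libraries and 54.7, 52.5 and 55.5 CPM in the shRRM2/shp16 libraries. It changed by -1.21 ± 0.04 in shRRM2 and by a further -0.17 ± 0.04 in shRRM2/shp16 (adjusted p = 0.0015), a small step without overlap. The limma test did not call this step with 9 columns (adjusted p = 0.0964) or with 8 (adjusted p = 0.0673). In the authors' test AURKA was at -0.03 and not significant. NEK2, a kinase that separates centrosomes, was at 37.04, 39.1 and 38.8 CPM in the control libraries, 11.04, 10.4 and 10.4 CPM in the shRRM2 libraries and 17.5, 16.6 and 18.3 CPM in the shRRM2/shp16 libraries. Its difference between shRRM2/shp16 and shRRM2, 0.72 ± 0.08, was the highest of the role. MELK, a kinase of the AMPK family high in dividing cells, was at 104, 103 and 107 CPM in the control libraries, 45.96, 46.8 and 45.2 CPM in the shRRM2 libraries and 38.6, 38.5 and 38.6 CPM in the shRRM2/shp16 libraries. Its second step was downward, by -0.25 ± 0.05 (adjusted p = 1.4e-05), while PBK, a kinase active in mitosis, was higher by 0.38 ± 0.07 (adjusted p = 2.6e-06).

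**Figure D3:**
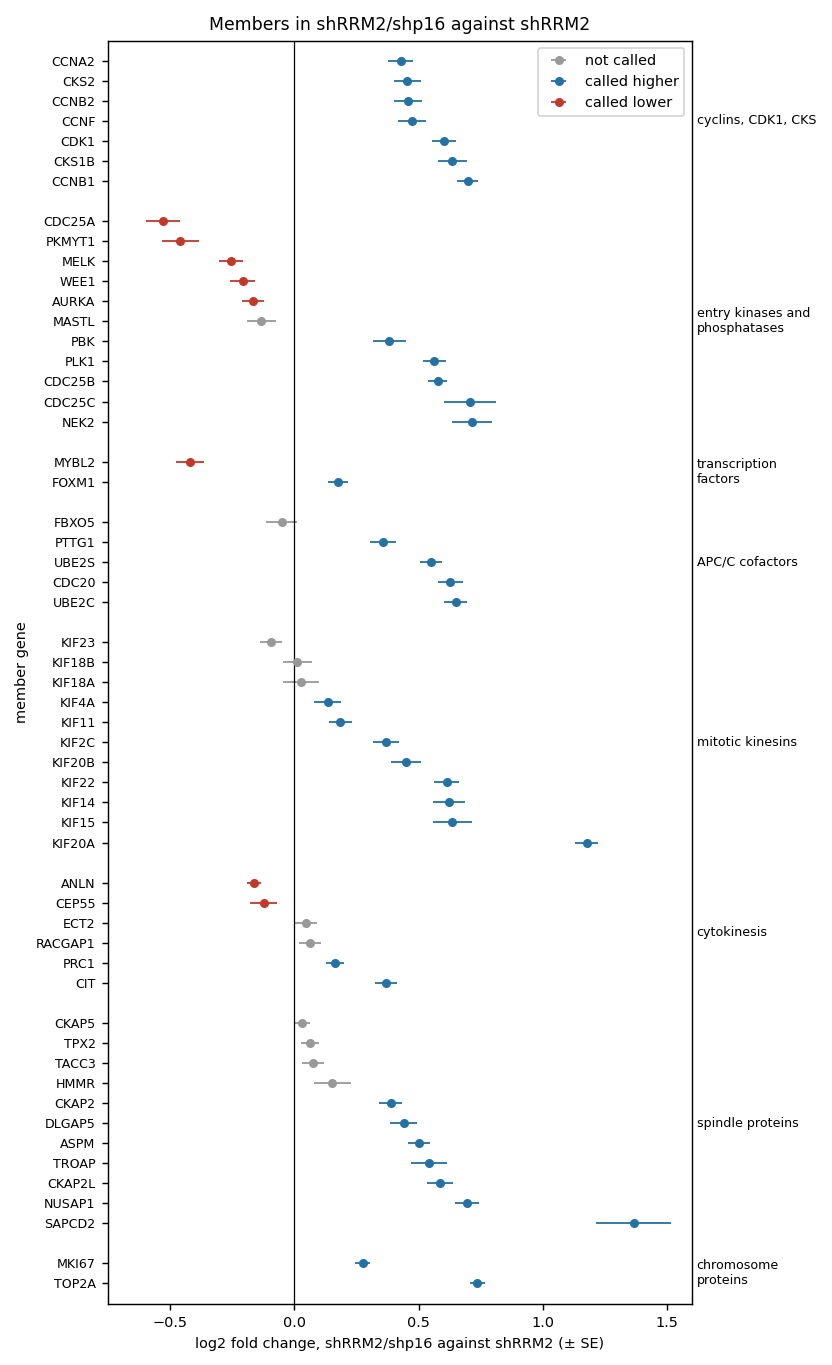
Log2 fold change of each tested member in shRRM2/shp16 against shRRM2 (x axis, points with SE bars) by role; blue was called higher, red lower and grey not called at an adjusted p under 0.05. The 7 cyclin, CDK1 and CKS genes are all blue, the entry kinases and phosphatases hold 5 of the 8 red points, and SAPCD2 and KIF20A are farthest right.

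The 2 transcription factors that drive this program were both lower in shRRM2 and moved in opposite directions with the second hairpin. FOXM1, the forkhead factor of G2 genes, was at 237, 237 and 246 CPM in the control libraries, 81.8, 74.1 and 75.7 CPM in the shRRM2 libraries and 87.4, 87.04 and 86.97 CPM in the shRRM2/shp16 libraries. Its log2 fold change was -1.64 ± 0.04 in shRRM2, and it was higher by 0.18 ± 0.04 in shRRM2/shp16 (adjusted p = 0.00019). MYBL2, the B-Myb factor that joins MuvB, was at 95.2, 91.8 and 93.1 CPM in the control libraries, 32.1, 32.3 and 30.4 CPM in the shRRM2 libraries and 22.9, 24.2 and 23.5 CPM in the shRRM2/shp16 libraries. It changed by -1.56 ± 0.05 and then by -0.42 ± 0.06 (adjusted p = 2.4e-08), and at 25.3% of control it was the lowest member in shRRM2/shp16. The groups of both genes were free of overlap. FOXM1 overlaps RHNO1 and ITFG2 on the opposite strand, and the strand setting of the counting is not stated, so its count may hold reads of those genes.

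The anaphase-promoting complex marks securin and cyclin B for destruction, and its activator CDC20 and E2 enzymes UBE2C and UBE2S were lower in shRRM2 and higher with the second hairpin. All 5 members of this role were lower in shRRM2 by at least 2-fold (median log2 fold change -1.53), and 4 of 5 were higher in shRRM2/shp16 than in shRRM2 (median 0.55). CDC20 was at 151, 154 and 150.2 CPM in the control libraries, 33.5, 37.7 and 34.9 CPM in the shRRM2 libraries and 51.8, 54.8 and 57.8 CPM in the shRRM2/shp16 libraries. It had the largest loss of the role, -2.10 ± 0.05, and a return of 0.63 ± 0.05. UBE2C, which starts ubiquitin chains, was at 157, 162 and 163 CPM in the control libraries, 40.7, 42.97 and 43.2 CPM in the shRRM2 libraries and 66.9, 62.8 and 69.6 CPM in the shRRM2/shp16 libraries. Its log2 fold changes were -1.92 ± 0.04 and 0.65 ± 0.05, the latter the highest of the role. UBE2S, which lengthens the chains, was at 141, 135 and 132 CPM in the control libraries, 58.1, 60.5 and 55.5 CPM in the shRRM2 libraries and 88.6, 84.99 and 81.5 CPM in the shRRM2/shp16 libraries. It was the least lowered of the role, at -1.23 ± 0.04, and higher by 0.55 ± 0.04, and it overlaps RPL28 on the opposite strand. PTTG1, securin, the protein that holds separase inactive, was at 91.5, 94.97 and 92.6 CPM in the control libraries, 33.4, 32.9 and 30.5 CPM in the shRRM2 libraries and 40.1, 42.4 and 41.5 CPM in the shRRM2/shp16 libraries. Securin changed by -1.53 ± 0.05 and 0.36 ± 0.05. FBXO5, the inhibitor EMI1 that keeps the complex off in S phase and G2, was at 65.2, 66.3 and 71.1 CPM in the control libraries, 29.5, 25.4 and 28.8 CPM in the shRRM2 libraries and 25.7, 27.04 and 28 CPM in the shRRM2/shp16 libraries. Its shRRM2 and shRRM2/shp16 libraries overlapped, and their difference was -0.05 ± 0.06 (adjusted p = 0.5).

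Of the 11 mitotic kinesins tested, all were lower in shRRM2 (median log2 fold change -1.62), and 8 were higher in shRRM2/shp16 than in shRRM2 (median 0.37), none lower and 3 not called. KIF20A, the kinesin MKLP2 that carries the chromosomal passenger complex to the central spindle, was at 173, 176 and 172 CPM in the control libraries, 31.7, 32.01 and 31.3 CPM in the shRRM2 libraries and 72.3, 72.5 and 70.04 CPM in the shRRM2/shp16 libraries. It had the largest loss of the kinesins, -2.45 ± 0.04, and the largest return, 1.18 ± 0.05 (adjusted p = 1.4e-25), with the 3 groups far apart. KIF20A overlaps CDC23 and BRD8 on the opposite strand. Its relative KIF20B, a kinesin of late cytokinesis, changed by -1.13 ± 0.06 and 0.45 ± 0.06, and the log2 ratio of KIF20A to KIF20B CPM averaged 1.46 in control, 0.14 in shRRM2 and 0.86 in shRRM2/shp16.

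KIF22, the chromokinesin Kid that pushes chromosome arms outward, was at 98.1, 95.1 and 97.6 CPM in the control libraries, 31.04, 32.2 and 30.1 CPM in the shRRM2 libraries and 46.7, 47.4 and 48.6 CPM in the shRRM2/shp16 libraries. The log2 fold changes of this gene were -1.64 ± 0.05 and 0.61 ± 0.05. KIF11, the motor Eg5 that slides spindle poles apart, was at 160.0, 163 and 158 CPM in the control libraries, 56.4, 52.1 and 59.4 CPM in the shRRM2 libraries and 64.1, 63.6 and 63.2 CPM in the shRRM2/shp16 libraries. Its return was small, 0.19 ± 0.05 (adjusted p = 0.00046), after a loss of -1.52 ± 0.04. KIF23, the kinesin MKLP1 of the centralspindlin complex, was at 204, 199.8 and 200.3 CPM in the control libraries, 89.9, 81.2 and 96.8 CPM in the shRRM2 libraries and 85.3, 81.4 and 84.3 CPM in the shRRM2/shp16 libraries. Its shRRM2 and shRRM2/shp16 libraries overlapped and the difference of -0.09 ± 0.04 did not pass the test (adjusted p = 0.06), though it was called lower under the same 4 settings as MASTL (adjusted p 0.0348 to 0.0472) and without shRRM2 replicate b (-0.16, adjusted p = 0.00174). KIF18A, which dampens chromosome movement at the spindle equator, was at 43.4, 53.3 and 49.4 CPM in the control libraries, 35.9, 28.5 and 32.9 CPM in the shRRM2 libraries and 29.2, 34.9 and 34.8 CPM in the shRRM2/shp16 libraries. It was the least lowered kinesin, -0.58 ± 0.07, and had the widest spread among replicates of any member in control and in shRRM2 (coefficients of variation of 10.3% and 11.5%). KIF18B, a depolymerase of astral microtubules, changed by -1.72 ± 0.05 in shRRM2 and was at nearly that level in shRRM2/shp16, with a difference of 0.01 ± 0.06 (adjusted p = 0.88). KIF4A, a chromokinesin of the central spindle, was higher by 0.13 ± 0.05 in shRRM2/shp16 (adjusted p = 0.029), a call lost without shRRM2 replicate a (0.08, adjusted p = 0.258), without shRRM2/shp16 replicate c (adjusted p = 0.0788) and with DESeq2 (adjusted p = 0.0767). The other 3 kinesins were higher in shRRM2/shp16 than in shRRM2: KIF2C, a centromere depolymerase, by 0.37 ± 0.05, KIF14, which brings citron kinase to the midbody, by 0.62 ± 0.06, and KIF15, a spindle motor that backs up Eg5, by 0.64 ± 0.08.

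**Figure D4:**
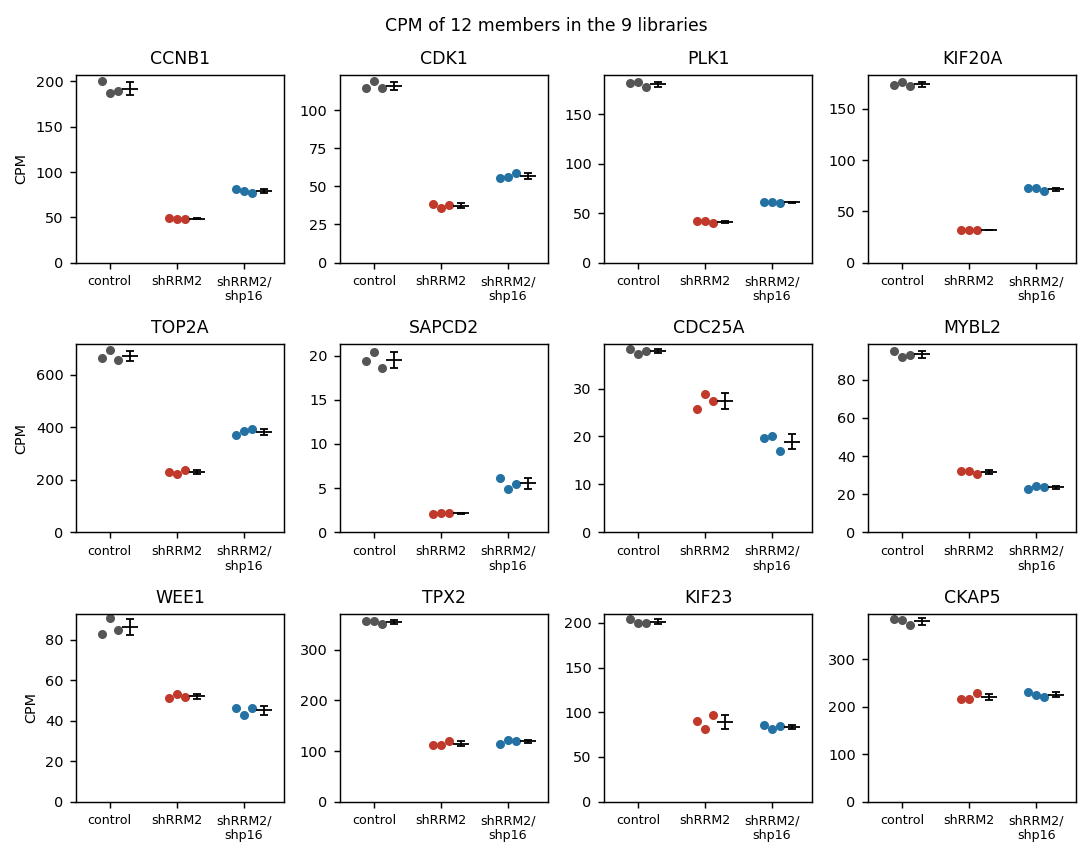
CPM of 12 members in the 9 libraries (points, 3 per group, with the mean and SD as the black bar; each panel has its own axis from 0). CCNB1, CDK1, PLK1, KIF20A, TOP2A and SAPCD2 lie between the other groups in shRRM2/shp16, CDC25A, MYBL2 and WEE1 are lowest there, and in TPX2, KIF23 and CKAP5 the shRRM2 and shRRM2/shp16 libraries overlap.

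The cytokinesis factors were lowered in shRRM2 about as much as the kinesins (6 of 6, median log2 fold change -1.55) and showed little difference between the hairpin groups: 2 were higher in shRRM2/shp16, 2 lower and 2 not called, with a median of 0.05. PRC1, which bundles antiparallel microtubules of the central spindle, was at 274, 266 and 267 CPM in the control libraries, 85.4, 83.9 and 84.1 CPM in the shRRM2 libraries and 93.1, 96.5 and 94.3 CPM in the shRRM2/shp16 libraries. It had the largest loss of the role, -1.67 ± 0.03, and was higher by 0.16 ± 0.04 (adjusted p = 0.00016). CIT, citron kinase, which stabilises the midbody, was at 166, 164 and 166 CPM in the control libraries, 58.5, 51.9 and 55.1 CPM in the shRRM2 libraries and 71.6, 69.01 and 73.2 CPM in the shRRM2/shp16 libraries. Its return of 0.37 ± 0.04 was the highest of the role. ANLN, anillin, the scaffold of the contractile ring, was at 563, 573 and 558 CPM in the control libraries, 223, 227 and 229 CPM in the shRRM2 libraries and 201, 204 and 202 CPM in the shRRM2/shp16 libraries. The log2 changes were -1.32 ± 0.03 and then -0.16 ± 0.03 (adjusted p = 5.8e-06), with narrow and separate groups. ECT2, the exchange factor that activates RhoA at the cleavage site, was at 111, 128 and 125 CPM in the control libraries, 74.8, 72.05 and 73.7 CPM in the shRRM2 libraries and 73.7, 77.6 and 76.3 CPM in the shRRM2/shp16 libraries. It was the least lowered of the role, -0.72 ± 0.04, and its hairpin groups overlapped (difference 0.05 ± 0.05, adjusted p = 0.39). RACGAP1, the partner of KIF23 in centralspindlin, differed by 0.06 ± 0.04 between the hairpin groups (adjusted p = 0.21). CEP55, which recruits the abscission machinery, was at 108, 103 and 106 CPM in the control libraries, 37.2, 37.4 and 35.3 CPM in the shRRM2 libraries and 32.1, 32.9 and 36.01 CPM in the shRRM2/shp16 libraries. Its difference of -0.12 ± 0.05 passed narrowly (adjusted p = 0.047) with overlapping groups, and the call was lost without control replicate a, b or c, shRRM2 replicate a or b, or shRRM2/shp16 replicate a or b (adjusted p 0.0529 to 0.222) with DESeq2 (0.138) and without a low-count filter (0.166).

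Among the 11 spindle and microtubule-associated proteins, all were lower in shRRM2 (median log2 fold change -1.46), and 7 were higher in shRRM2/shp16 than in shRRM2 (median 0.44), none lower and 4 not called. SAPCD2, a regulator of spindle orientation, was at 19.4, 20.4 and 18.6 CPM in the control libraries, 2.09, 2.19 and 2.12 CPM in the shRRM2 libraries and 6.18, 4.93 and 5.48 CPM in the shRRM2/shp16 libraries. It had the largest changes of all members in both directions, -3.18 ± 0.12 and 1.37 ± 0.15 (adjusted p = 5.6e-26 and 1.7e-10), from a low level, and in shRRM2 it stood at 10.98% of control. TPX2, which targets and activates AURKA on spindle microtubules, was at 357, 357 and 349.6 CPM in the control libraries, 111, 111 and 119.5 CPM in the shRRM2 libraries and 115, 122 and 120.1 CPM in the shRRM2/shp16 libraries. Its loss of -1.64 ± 0.03 was followed by no called difference (0.06 ± 0.04, adjusted p = 0.14), although without shRRM2 replicate c the difference was 0.10 (adjusted p = 0.0272), and limma on 8 columns called it too (adjusted p = 0.0022). CKAP5, the microtubule polymerase chTOG, was at 385, 384 and 372 CPM in the control libraries, 217, 217 and 228 CPM in the shRRM2 libraries and 231, 225 and 221 CPM in the shRRM2/shp16 libraries. It was the least lowered of the role, -0.78 ± 0.03, with overlapping hairpin groups (0.03 ± 0.03, adjusted p = 0.37). TACC3, which binds CKAP5 on the spindle, differed by 0.07 ± 0.04 between the hairpin groups (adjusted p = 0.13, 0.0392 without shRRM2 replicate c and 0.00281 with limma on 8 columns). HMMR, a spindle pole protein, differed by 0.15 ± 0.07 (adjusted p = 0.075, and 0.0465 and 0.029 without control or shRRM2 replicate a), and it has an antisense gene on the opposite strand. The 6 others were higher in shRRM2/shp16 than in shRRM2, from 0.39 in CKAP2 to 0.69 in NUSAP1, with ASPM, which focuses spindle poles, at 0.50.

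The 2 chromosome proteins are among the most used proliferation markers. TOP2A, topoisomerase II alpha, which untangles sister chromatids, was at 664, 693 and 657 CPM in the control libraries, 228, 223 and 237 CPM in the shRRM2 libraries and 370.1, 384 and 391 CPM in the shRRM2/shp16 libraries. The log2 changes were -1.55 ± 0.03 and then 0.74 ± 0.03 (adjusted p = 1.4e-24). MKI67, the Ki-67 protein that coats mitotic chromosomes, was at 1042, 1019 and 1046 CPM in the control libraries, 309, 317 and 339.5 CPM in the shRRM2 libraries and 391.8, 377 and 399 CPM in the shRRM2/shp16 libraries. Its loss was similar, -1.69 ± 0.03, and its return smaller, 0.27 ± 0.03 (adjusted p = 1.4e-10), and neither gene had overlapping groups.

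Promoter elements were set beside these differences as a description, without a test. Members without a promoter window are left out of it. Of these, AURKA, PKMYT1 and WEE1 were called lower in shRRM2/shp16 than in shRRM2. FOXM1, PBK, TROAP and UBE2C were called higher, and RACGAP1 and TPX2 were not called. Over all tested genes 31.9% were called higher and 29.1% lower. That share was not counted by element. All tested members with and without each element were lower in shRRM2 than in control. In shRRM2/shp16 against shRRM2, the median log2 fold change was 0.46 for the 38 tested members with CCAAT, of which 29 were higher and 2 lower, and -0.03 for the 8 without it, of which 3 were higher and 3 lower. For the CHR the medians were 0.45 in 34 members with it (24 higher, 2 lower) and 0.38 in 12 without it (8 higher, 3 lower).

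In shRRM2 against control, lists of genes that work with the members or are related to them had medians nearer 0 than the member roles. This comparison of lists was not tested. Over all tested genes 31.8% were called lower and 29% higher in shRRM2 against control, the background for the count of each list here and in the next paragraph. The core of the anaphase-promoting complex with its G1 activator FZR1 had 12 of 15 genes lower in shRRM2 and none higher (median log2 fold change -0.31), and none by 2-fold. FZR1, at -0.85 ± 0.05, ANAPC15, at -0.54 ± 0.07, and CDC26, at -0.48 ± 0.09, were the most lowered. The MuvB core, on which MYBL2 and DREAM assemble, had 4 of 5 lower (median -0.45), led by LIN52 at -0.89 ± 0.09, LIN9 at -0.89 ± 0.11 and LIN54 at -0.45 ± 0.06. Partners of mitotic entry had 6 of 9 lower and 1 higher (median -0.23), with BORA, the activator of AURKA toward PLK1, at -1.33 ± 0.10, CHEK1, the checkpoint kinase that restrains CDC25, at -0.55 ± 0.05, and CDC14B, a phosphatase, at 0.46 ± 0.06.

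Transport kinesins and their light chains, relatives of the mitotic motors that move cargo in non-dividing cells, had 6 of 16 tested genes higher in shRRM2, 3 lower and 7 not called (median log2 fold change -0.03). KIF21B was lower, at -0.77 ± 0.13, and KIF21A and KLC1 were higher by 0.69 ± 0.14 and 0.49 ± 0.04. The general machinery of cytokinesis and abscission (RhoA, myosin II, formins, septins and ESCRT-III) had 9 of 21 lower and 3 higher (median -0.07), led by the formins DIAPH3, at -0.67 ± 0.04, and DIAPH1, at -0.54 ± 0.03, and by SEPT9, a septin, at -0.30 ± 0.03. In shRRM2/shp16 against shRRM2 the lists gave 7 higher and 4 lower for the complex core, 2 and 0 for MuvB, 4 and 3 for the entry partners, 5 and 9 for the transport kinesins and 3 and 13 for the cytokinesis machinery. The medians were 0.07, 0.14, 0.08, -0.20 and -0.27 in that order. Over all tested genes 31.9% were called higher and 29.1% lower in shRRM2/shp16 against shRRM2.

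**Figure D5:**
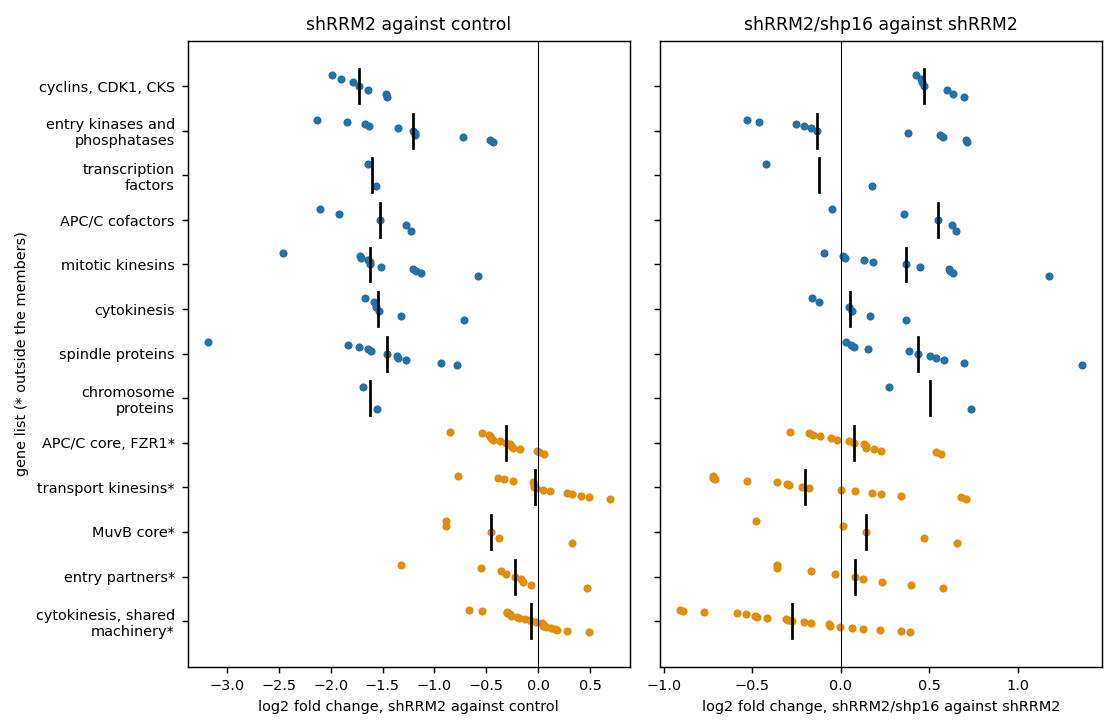
Log2 fold change of each tested gene (points) in 2 comparisons, by role of the members (blue) and by list outside the members (orange, marked *), with the median as a black bar. In shRRM2 against control the member roles have medians from -1.21 to -1.73, and the other lists from -0.03 to -0.45.

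The authors' deposited table gives a test of shRRM2/shp16 over shRRM2, groups that differed in RRM2 level as well as in the p16 hairpin. It marks 31 of the 56 members as significant, 27 higher and 4 lower, and 4991 of 64235 genes in all. The 64235 take in genes with almost no counts, such as KIFC1, so their share is not a like background for the members. In the authors' deposited table the 4 lower members are PKMYT1 (-0.65 on the log2 scale), CDC25A (-0.54), MYBL2 (-0.38) and MELK (-0.23). The same authors' deposited table gives SAPCD2 at 1.35, KIF20A at 1.16 and TOP2A at 0.89. AURKA, WEE1, ANLN and CEP55, which edgeR called lower on the counts, are not marked significant in the authors' deposited table, where their values are -0.03, -0.06, -0.10 and -0.11. WEE1, AURKA and CEP55 also missed the threshold with limma on 8 columns (adjusted p = 0.0579, 0.0673 and 0.131). Some members that edgeR called higher are not marked significant in the authors' deposited table either. They are FOXM1 (0.20), MKI67 (0.47), UBE2S (0.53), KIF2C (0.32), CIT (0.58), PRC1 (0.16), CKAP2L (0.44), TROAP (0.23) and KIF4A, whose value there is -0.02.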

How the data were processed

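RNA-seq of 9 IMR90 libraries was analysed. Per the labels' protocols, rRNA was removed and the libraries keep strand. The authors deposited raw read counts per gene for each library, in the layout HTSeq writes. The submitters' processing notes name TopHat2 2.0.9, Cufflinks 2.0.2, Cuffdiff and GRCh38. The strand setting of the counting is not given in the sources used here, and many members overlap a gene on the opposite strand in GENCODE release 29, among them CCNA2, CDC25C, PKMYT1, MASTL, PLK1 and ANLN. The authors also deposited a table of log2 values per library together with their test of shRRM2/shp16 over shRRM2 (log2 fold change, p-value, q-value). Calculation back from the counts showed that the log2 values are log2(x + 1) with x the RPKM divided by 1000, within 0.1% in 8 of 9 columns. The column of shRRM2 replicate c matched in 0.668% of 8233 genes. There were 0 columns that matched no sample. The table had numbers in place of 29 symbols. Only listed genes not found there by symbol, the septins, were looked up by their GENCODE name.

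Tally lines were left out. Unassigned reads outside genes are given as a share of uniquely aligned reads. The test was that of edgeR 4.0.16, run in R 4.3.3 (filterByExpr, TMM, glmQLFit, glmQLFTest, two-sided) with all 9 libraries in 1 fit and 6 residual degrees of freedom. Adjusted p-values are Benjamini-Hochberg over 16561 genes with a threshold of 0.05. A 2-fold change is a log2 change of at least 1. Alternatives used DESeq2 1.42.0 and limma 3.58.1, and the scripts were tested on simulated data. Replicates of a group differed by more than counting noise. The members and lists were chosen with earlier results of these data known. Values per library are given for a list of members written with the design, for the extremes of each role and for members that moved against the majority. Outside lists name the 3 largest called changes in shRRM2 against control. Counts cover amplified molecules without molecular identifiers.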

Additional observations from a re-analysis of the deposited data

How the results depend on the processing

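The member results were recomputed under 17 other settings: other size factors, DESeq2, other count filters, only the 6 libraries compared, a replicate block, each library left out and, added after seeing the data, limma on log2(RPKM + 1). Over 2805 values for single members, 2746 kept their side of the threshold, 41 lost the call and 18 gained it. Of values called in the main fit or the other setting, 0 reversed direction. Values that were not called could change sign. In shRRM2/shp16 against shRRM2, for example, TPX2 ran from -0.04 to 0.15 and KIF23 from -0.16 to 0.03 over the settings. All 55 members stayed lower than control in both comparisons under every setting, except that limma on all 9 columns called 54 in shRRM2/shp16 against control (KIF14, adjusted p = 0.0528). In shRRM2/shp16 against shRRM2, settings based on counts called 42 to 46 members. limma on 9 columns called 19 (14 higher, 5 lower), and 45 (40 higher, 5 lower) on 8 columns without that of shRRM2 replicate c, which does not match its count file. The member medians under limma were -1.24, 0.23 and -1.09 with 9 columns and -1.41, 0.43 and -1.09 with 8, for shRRM2 against control, shRRM2/shp16 against shRRM2 and shRRM2/shp16 against control; a pseudocount of 1 shrinks the changes of low genes. With each library left out, the median in shRRM2/shp16 against control ran from -1.26 to -1.21. limma on 8 columns moved the split of all genes in that comparison to 5993 higher and 4117 lower, from 4971 and 5368. The replicate letters did not pair the samples (same-letter correlations of -0.02 to 0.05), and the replicate block called 55, 46 and 55 members and 10101, 10134 and 10388 genes in the 3 comparisons. A planned limma test on deposited log2 values of at least 1 was not run, since 0 members reach that level. KIFC1, with 5 counts, could not be tested, and the cause of its low count was not tested. The tested members with the fewest counts, SAPCD2 and CDC25C, had the largest standard errors in shRRM2/shp16 against shRRM2 (0.15 and 0.10).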
